A study of Mus musculus with 10 samples.

Results

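The 7 cyclin-dependent kinase (CDK) inhibitor genes of the mouse are Cdkn1a, Cdkn1b, Cdkn1c, Cdkn2a, Cdkn2b, Cdkn2c and Cdkn2d. They were taken by name from 22359 protein-coding genes, with no filter on their marks. Earlier results of these data were known when they were chosen. For each gene, histone mark peaks were kept that lay within 2.5 kb of any transcription start site (TSS) of a protein-coding transcript or that overlapped the gene body. This gave 43 of the 70826 peaks in 8 lists. A gene was said to have a mark when at least 1 bp of its region, the TSS windows and the gene body together, was under a peak.

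The peaks came from ChIP-Rx, a ChIP-seq in which cells of the Drosophila line S2 are mixed with the mouse cells as a constant reference. Embryonic stem cells were differentiated as embryoid bodies (EBs), floating aggregates that form mesoderm, and mCherry-positive cells, in which a reporter of Scl was on, were sorted at day 4. SCL (TAL1) is a basic helix-loop-helix factor without which blood does not form. The WT cells came from the Scl:mcherry line (genotype Scl wt) and the Delta cells from the Scl d/d:mcherry line, whose SCL lacks that domain and is non-functional. Both lines thus carried the reporter and were sorted in the same way. No drug or other agent was named for either group. The labels give the strain as C57Bl/6 crossed with Sv129 for 3 libraries, and with a number that runs up by 1 from Sv130 to Sv136 over the other 7. There were 10 libraries, 1 for each of 4 marks in each of 2 genotypes and 2 inputs. No difference between WT and Delta below therefore has a replicate check, and each is a difference between libraries.

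CDK inhibitors stop the cell cycle by binding the kinases that drive it. The INK4 proteins p16, p15, p18 and p19, encoded by Cdkn2a, Cdkn2b, Cdkn2c and Cdkn2d, bind CDK4 and CDK6. The CIP/KIP proteins p21, p27 and p57, encoded by Cdkn1a, Cdkn1b and Cdkn1c, bind complexes of cyclins with several CDKs. H3K4me3 is found at promoters that are active or poised, and H3K27ac at active promoters and enhancers. H3K27me3 is laid down by Polycomb repressive complex PRC2 and H2AK119ub by PRC1, and both are found at silenced genes. Cdkn2a and Cdkn2b are textbook targets of Polycomb repression.

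Sequences upstream of 4 start sites are shown here because they stand for the different sets of marks described below. Each is the 150 bases before the TSS, read 5′ to 3′ on the strand of the gene from the NCBIM37 (mm9) genome, with CpG dinucleotides in capitals. None of them overlaps an annotated exon. Cdkn1b (chr6:134870269-134870418, plus strand) was the gene with H3K27ac. The p16 start site of Cdkn2a (chr4:88928097-88928246, minus strand) had H3K4me3 in the WT list alone, and the p19ARF start site of the same gene (chr4:88940558-88940707, minus strand) had it in both. Cdkn2d (chr9:21095654-21095803, minus strand) had no peak.
Cdkn1b: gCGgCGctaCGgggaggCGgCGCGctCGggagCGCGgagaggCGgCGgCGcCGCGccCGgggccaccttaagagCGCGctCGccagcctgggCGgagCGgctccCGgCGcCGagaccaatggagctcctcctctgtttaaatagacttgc
Cdkn2a, p16: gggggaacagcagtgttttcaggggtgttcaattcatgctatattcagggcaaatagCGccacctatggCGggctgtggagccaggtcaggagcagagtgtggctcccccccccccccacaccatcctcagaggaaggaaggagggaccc
Cdkn2a, p19ARF: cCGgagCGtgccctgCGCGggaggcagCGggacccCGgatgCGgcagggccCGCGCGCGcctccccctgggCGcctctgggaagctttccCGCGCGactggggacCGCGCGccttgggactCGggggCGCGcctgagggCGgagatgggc
Cdkn2d: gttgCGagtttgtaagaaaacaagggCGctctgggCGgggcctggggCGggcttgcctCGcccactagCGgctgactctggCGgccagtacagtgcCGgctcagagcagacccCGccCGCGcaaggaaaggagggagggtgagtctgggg
The Cdkn1b sequence holds 23 CpGs, that of p19ARF 22, that of Cdkn2d 11 and that of p16 2. The 2 promoters of Cdkn2a thus differed widely in CpGs.

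Across the 4 marks and 7 genes, every one of 28 gene and mark pairs was called alike in WT and Delta. Of these pairs 17 had a peak in both genotypes, and the others agreed in having none. H3K4me3 was found at 6 of 7 genes in each genotype, against 61.9% of all protein-coding genes in WT and 61.4% in Delta. H3K27me3 was found at the same 6 genes in each genotype, against 36.7% and 34.6% of all genes. H2AK119ub was found at 4 genes, Cdkn1c, Cdkn2a, Cdkn2b and Cdkn2c, in each genotype, against 10.8% and 5.70%. H3K27ac was found at 1 gene, Cdkn1b, in each genotype, against 20.8% and 23.6%. Cdkn2d had none of the 4 marks in either genotype, as had 34.2% of all genes.

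No inhibitor gene had a mark in 1 genotype alone under this rule. With the gene body left out, Cdkn2c had H2AK119ub in WT alone and Cdkn2b in Delta alone. The same was seen with at least 500 bp of cover, where Cdkn1c also had H3K4me3 in Delta alone. At Cdkn2b and Cdkn2c the H2AK119ub peaks of WT and Delta shared 0 bp. Among all genes, the share with a mark in WT alone was 1.21% for H3K4me3, 3.84% for H3K27ac, 7.08% for H3K27me3 and 5.91% for H2AK119ub. In Delta alone it was 0.716%, 6.61%, 4.99% and 0.832%. All 4 marks were called alike in 72.7% of all genes, so most genes were like these 7 in that respect. Among the genes with a peak in any list this share was 58.5%, beside 6 of 6 inhibitor genes. The regions of the inhibitor genes had a median length of 7613 bp and those of all genes 17906 bp, and a longer region has more room for a peak.

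H3K4me3 and H3K27me3 were found together at 6 of 7 inhibitor genes in each genotype, against 33.9% of all genes in WT and 31.6% in Delta. With H2AK119ub in addition there were 4 of 7, against 8.96% and 5.24%. Libraries were made from many cells, so marks on the same chromosomes and marks in different cells or on different alleles cannot be told apart. The plot of covered length by gene and list shows these calls and their extent.

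**Figure D1:**
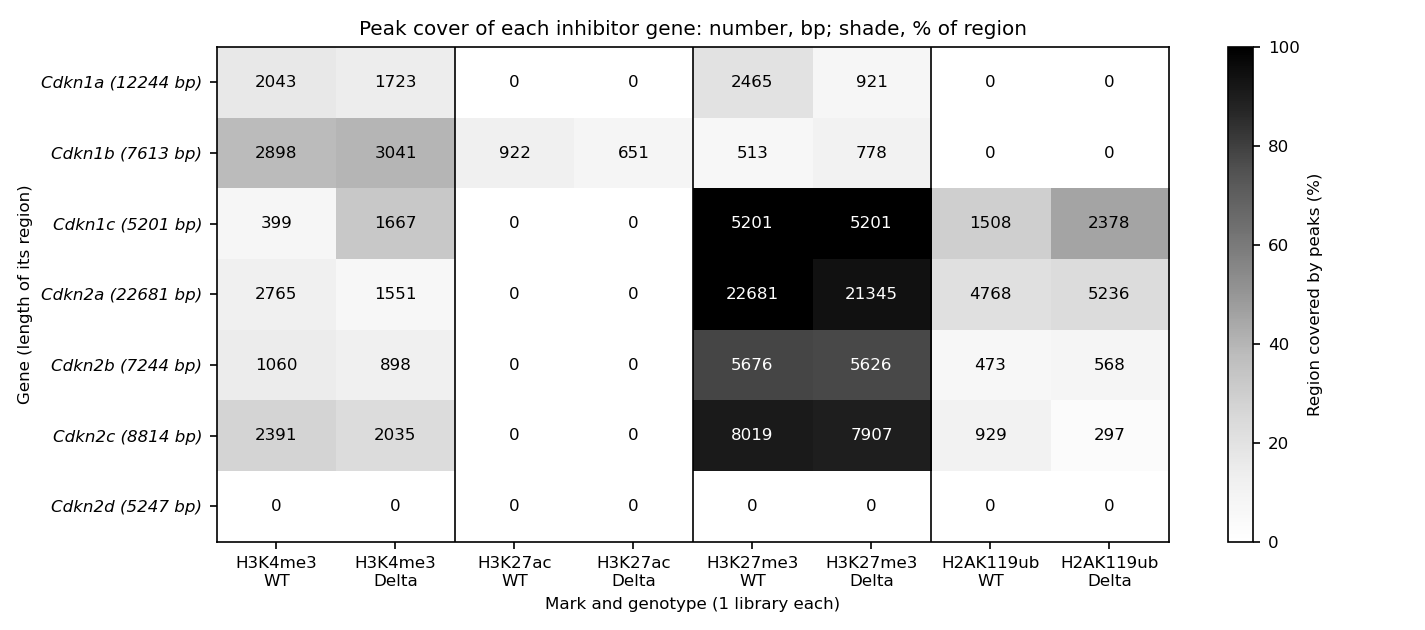
Base pairs of the region of each inhibitor gene (rows, with the region's length) that lay under peaks of each list (columns, mark and genotype, 1 library each). The grey shade gives the same as a percentage of the region. The 4 dark H3K27me3 rows are Cdkn1c, Cdkn2a, Cdkn2b and Cdkn2c, H3K27ac is seen at Cdkn1b, and the row of Cdkn2d is empty.

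The covered lengths separated the 7 genes into a group with long H3K27me3 peaks and a group without. Cdkn1c, Cdkn2a, Cdkn2b and Cdkn2c each lay at least in part under an H3K27me3 peak of 10 kb or more in each genotype, as did 2.37% of all genes in WT and 2.54% in Delta. Cdkn2a and Cdkn2b shared the same WT peak and a Delta peak, so these 4 genes are not 4 separate domains. The 10 kb length was chosen after the values were seen. The shortest of these peaks at an inhibitor gene was 15241 bp and the longest H3K27me3 peak at the remaining genes 2465 bp, so no gene lay near the 10 kb limit. All 4 genes with H2AK119ub were genes with a long H3K27me3 peak. The share of all genes with H2AK119ub that had such a peak was not counted, so no link between the marks is read from this.

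Among the CIP/KIP genes, Cdkn1a encodes p21, the inhibitor that p53 switches on after DNA damage. The gene (ENSMUSG00000023067.7) lies at chr17:29227924-29237667 on the plus strand and has 3 coding start sites. Its H3K4me3 peak was 2043 bp long in WT against 1723 bp in Delta, and the Delta peak lay wholly inside the WT peak. The peak began 68 bp downstream of the middle start site, that of transcript Cdkn1a-001, in WT and 95 bp downstream of it in Delta. The fold enrichment of the peak over its background, as the authors' peak caller gave it, was 5.73 in WT and 7.26 in Delta. Fold enrichments here and below are not scaled to the Drosophila reference, so they do not compare the amount of a mark between genotypes. The first start site was 2861 bp from this peak in WT against 2888 bp in Delta, and no H3K4me3 peak reached its window.

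H3K27me3 at Cdkn1a covered 2465 bp in WT and 921 bp in Delta, a ratio of Delta to WT of 0.374. The WT peak, with a fold enrichment of 4.03, spanned the Cdkn1a-001 start site. The Delta peak, with a fold enrichment of 4.05, began 471 bp downstream of that site, in the intron. The covered length of H3K27me3 was lower in Delta by over 1.5 fold in 14.2% of 6617 genes covered in both genotypes and higher in 13.1%, so a change of this size was not rare. H3K27ac and H2AK119ub had no peak at Cdkn1a, and their nearest peaks to the Cdkn1a-001 start site were 60002 bp and 142447 bp away in WT.

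Cdkn1b encodes p27, which is held high in resting cells and is destroyed as cells enter S phase. The gene (ENSMUSG00000003031.8, chr6:134870419-134875531, plus strand) had the longest H3K4me3 peak of the 7 in each genotype. This peak was 2898 bp in WT, longer than 93.0% of the peaks in its list, and 3041 bp in Delta, longer than 95.8%. It spanned the start site, from −879 to 2018 bp relative to it in WT, and its fold enrichment was 9.18 in WT and 8.27 in Delta. These were the highest H3K4me3 fold enrichments at any inhibitor gene in either list.

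The H3K27ac peak of Cdkn1b also spanned the start site and lay wholly inside the H3K4me3 peak. It was 922 bp long in WT and 651 bp in Delta, a ratio of 0.706, with fold enrichments of 4.48 and 4.17. An H3K27me3 peak lay just downstream of the start site, at 328 to 840 bp in WT and at 120 to 897 bp in Delta. It covered 513 bp in WT and 778 bp in Delta, a ratio of 1.52 that passes the 1.5 fold rule narrowly. These H3K27me3 peaks were weak, with −log10 q-values of 2.33 and 1.81, and with peaks of −log10 q of at least 3 alone Cdkn1b had no H3K27me3 in either genotype. The H2AK119ub peak nearest to Cdkn1b in WT lay 6885997 bp upstream.

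Cdkn1c encodes p57, and in the mouse it is imprinted and expressed mainly from the maternal chromosome. The gene (ENSMUSG00000037664.6, chr7:150644255-150646955, minus strand) lay wholly under H3K27me3 in both genotypes, with 5201 of 5201 bp of its region covered. Its H3K4me3 peak was 399 bp long in WT and 1667 bp in Delta, a ratio of 4.18. The WT peak began 1405 bp downstream of the start site and the Delta peak 80 bp downstream, and they shared 342 bp. The fold enrichments, 3.85 in WT and 3.96 in Delta, were the lowest H3K4me3 values at the inhibitor genes. Among 13570 genes with H3K4me3 in both genotypes, 3.04% were longer in Delta by over 1.5 fold and 10.1% shorter. With at least 500 bp of cover required, Cdkn1c had H3K4me3 in Delta and not in WT.

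H2AK119ub at Cdkn1c covered 1508 bp in WT and 2378 bp of the region in Delta, a ratio of 1.58. Without the gene body the ratio was 1.44, so it passed the 1.5 fold rule narrowly. In WT the peak spanned the start site, from −604 to 903 bp relative to it. In Delta it lay over the gene, from 323 bp to 3193 bp downstream, and the peaks shared 581 bp. Their −log10 q-values were 1.54 and 1.56. Both lay close to the limit of their lists, whose lowest −log10 q-values were 1.30 and 1.34. Among 1089 genes with H2AK119ub in both genotypes, 15.0% were longer in Delta by over 1.5 fold and 47.8% shorter.

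The H3K27me3 peak over Cdkn1c was 36023 bp long in WT, rank 22 by length among 11345 peaks. In Delta 2 peaks covered 33352 bp of this stretch, 92.6% of it, and the one over the gene was 15241 bp long, rank 210 among 10881. The gap between them was 1897 bp long and lay 7350 to 9246 bp downstream of the Cdkn1c start site, beyond the end of the gene. Such a gap would be bridged if peaks up to 3000 bp apart were joined. The fold enrichment of the peak over the gene was 6.71 in WT and 7.81 in Delta.

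Farther out the H3K27me3 cover around Cdkn1c differed more than over the gene itself. Within 50 kb on either side, H3K27me3 covered 67978 bp in WT and 47107 bp in Delta. On the upstream side the cover was 32110 bp in WT against 20051 bp in Delta, and on the downstream side 33167 bp and 24355 bp. Apart from the peak over the gene and that at Phlda2, the WT H3K27me3 peaks in this stretch were weak. Their fold enrichments were 3.05 to 3.82, beside a median of 3.71 in the WT list. The H3K27me3 peaks of all chromosomes together spanned 30.4 Mb in WT and 31.0 Mb in Delta. H2AK119ub covered 8536 bp of the same stretch in WT against 4433 bp in Delta. The H2AK119ub peaks of all chromosomes together spanned 5.26 Mb in the WT list against 2.84 Mb in the Delta list, so a smaller H2AK119ub cover in Delta was seen over the genome too.

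**Figure D2:**
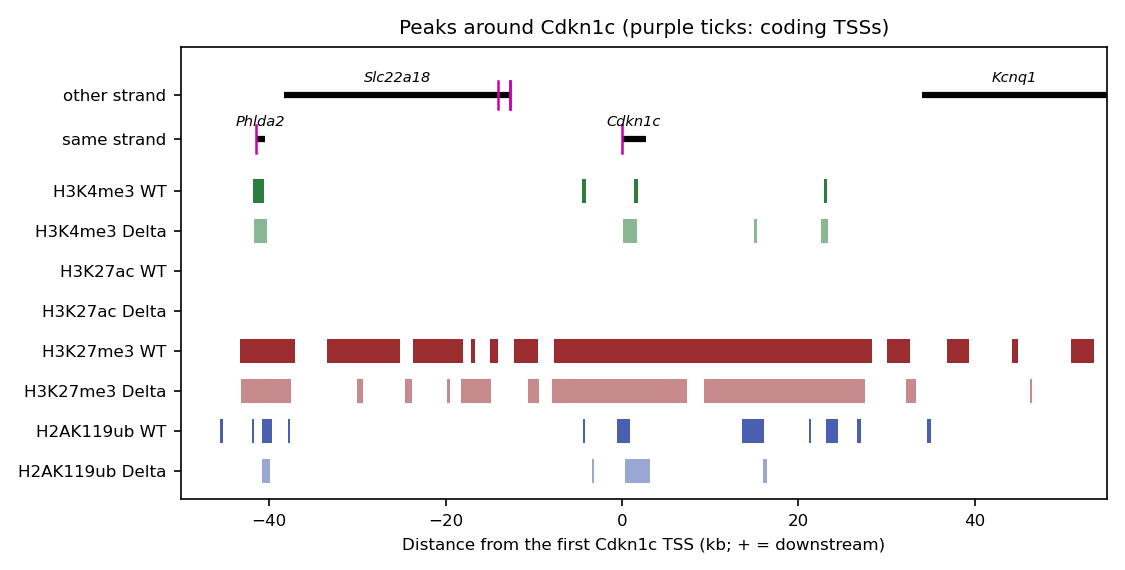
Peaks around Cdkn1c by list, with the distance from the first Cdkn1c start site in kb on the horizontal axis (positive is downstream) and the gene models above, where purple ticks are coding start sites. The WT H3K27me3 peak of 36023 bp over the gene is matched by 2 Delta peaks with a gap of 1897 bp, and within 50 kb of the gene H3K27me3 covers 67978 bp in WT against 47107 bp in Delta.

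H3K27me3 was then counted by gene in the imprinted domain that holds Cdkn1c, which in part takes in the stretch just described. Of 8 genes listed for this domain 6 were among the protein-coding genes used, and 5 of these had H3K27me3 in both genotypes. The remaining gene, Cars, which codes for a transfer RNA synthetase, had 0 bp in WT and 244 bp in Delta. Kcnq1, a potassium channel gene whose end lies 31299 bp downstream of Cdkn1c, had 58344 bp of H3K27me3 in WT and 15712 bp in Delta. Slc22a18, a transporter gene 12670 bp upstream, had 18699 bp and 6498 bp. Nap1l4, a histone chaperone gene, had 705 bp and 243 bp. These 3 were lower in Delta by over 1.5 fold. Phlda2, an imprinted regulator of placental growth, had 4351 bp and 4184 bp, and Igf2, a fetal growth factor gene, had 11784 bp and 9861 bp. The median ratio of Delta to WT over the 5 genes was 0.348, beside 1.00 over all genes. Slc22a18, Phlda2 and the end of Kcnq1 lie inside the stretch around Cdkn1c measured above. Their values thus count some of the same peaks again and are not a separate observation. Neighbouring genes can also share a peak and are not independent. Whether the counterparts on the parental chromosomes differed cannot be read from these lists.

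The INK4 genes Cdkn2a and Cdkn2b lie side by side on chromosome 4, separated by 11640 bp. Cdkn2a (ENSMUSG00000044303.5, chr4:88920377-88940557, minus strand) encodes p16 and, from a separate upstream promoter and another reading frame, p19ARF, which stabilises p53 by binding MDM2. Cdkn2b (ENSMUSG00000073802.4, chr4:88952198-88956941, minus strand) encodes p15, which TGF-beta induces in many cells. A single H3K27me3 peak of 41650 bp ran over all of Cdkn2a and Cdkn2b in WT, rank 15 by length in its list. It ran from −144 to 41505 bp relative to the Cdkn2b start site and ended downstream of Cdkn2a.

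In Delta the same stretch held 2 H3K27me3 peaks, of 24749 bp (rank 62) and 18547 bp (rank 150), which covered 39885 bp or 95.8% of the WT peak. The gap between them was 1336 bp long and lay in the intron of Cdkn2a, 8650 to 9985 bp downstream of the first p19ARF start site and thus between the p19ARF and p16 promoters. It held no H2AK119ub peak in Delta. The fold enrichment was 7.42 for the WT peak and 7.72 and 8.56 for the Delta peaks. Over the region of Cdkn2a H3K27me3 covered 22681 bp in WT and 21345 bp in Delta, a ratio of 0.941, and over Cdkn2b 5676 bp and 5626 bp, a ratio of 0.991. With peaks of −log10 q of at least 3 alone the ratio at Cdkn2b was 1.15.

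At the Cdkn2b start site the edge of the H3K27me3 domain differed between the lists. The WT peak spanned the start site, while the Delta peak ended 285 bp downstream of it. A further peak lay upstream, at −3121 to −1713 bp from the start site in WT (1409 bp long) and at −1923 to −757 bp from it in Delta (1167 bp long). The H3K4me3 peak of Cdkn2b spanned the start site in both, with 1060 bp in WT against 898 bp in Delta, a ratio of 0.847. Of the WT H3K4me3 peak 85.9% lay on H3K27me3 and of the Delta peak 43.5%.

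The 2 promoters of Cdkn2a, assigned to p19ARF and p16 by their order along the gene, differed in H3K4me3. At the p19ARF start sites the peak was 1458 bp long in WT against 1551 bp in Delta and spanned both annotated sites. Its fold enrichment was 6.18 and 5.48, and the peaks shared 1437 bp. At the p16 start site a peak of 1307 bp was listed in WT, with a fold enrichment of 4.03 and a −log10 q-value of 3.82. In Delta no H3K4me3 peak overlapped it, and the nearest one lay 12059 bp upstream, which is the p19ARF peak. Accordingly, the H3K4me3 cover over Cdkn2a was 2765 bp in WT and 1551 bp in Delta, a ratio of 0.561, with the gene still called in both. The median fold enrichment of the WT list was 6.42, above that of the p16 peak, and whether signal below the limit of the list was present in Delta cannot be read from the list. The whole H3K4me3 lists held 16038 peaks in WT and 15412 in Delta.

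H2AK119ub over Cdkn2a came in separate peaks that lay inside the H3K27me3 domain. In WT there were 4, of 2832, 1127, 582 and 227 bp, and in Delta 5, of 4118, 1168, 678, 334 and 1457 bp. They covered 4768 bp of the region in WT and 5236 bp in Delta, a ratio of 1.10, with 2147 bp in common. This ratio was 0.850 with a TSS distance of 1000 bp and 2.11 without the gene body, so it had no stable direction. Most of this shared stretch lay near the end of the gene, where the WT peak of 2832 bp overlapped the Delta peaks of 4118 and 1168 bp. The Delta peak of 334 bp lay 674 bp upstream of the p16 start site, whose window held no H2AK119ub peak in WT. Over the whole WT H3K27me3 domain of Cdkn2a and Cdkn2b H2AK119ub covered 5241 bp in 5 peaks in WT and 8523 bp in 7 peaks in Delta. At Cdkn2b itself the single peak, of 473 bp in WT and 568 bp in Delta, lay at different places, 3774 bp and 921 bp downstream of the start site, and shared 0 bp.

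**Figure D3:**
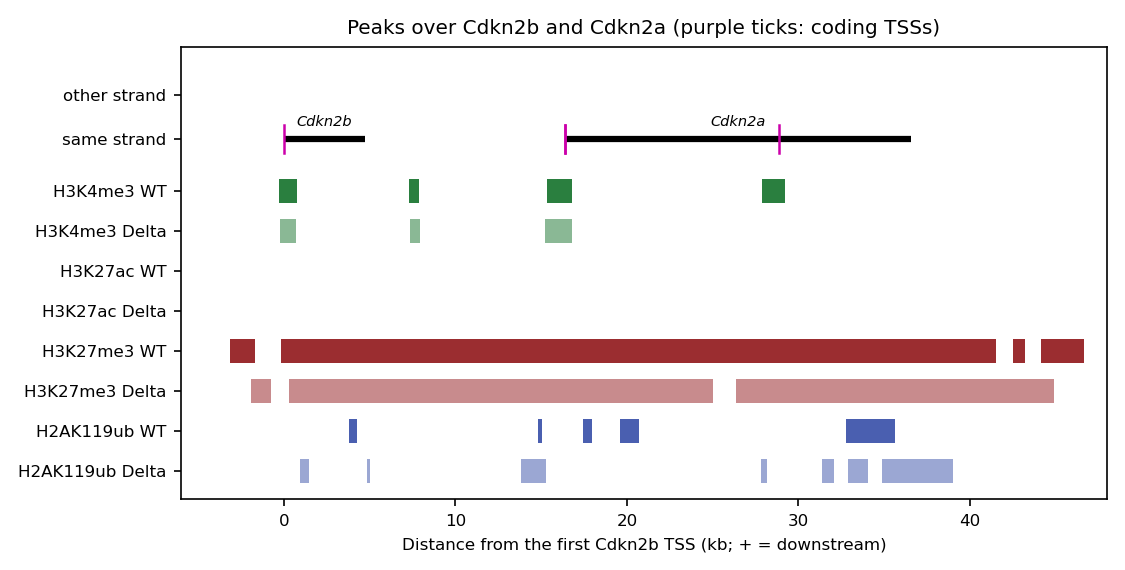
Peaks over Cdkn2b and Cdkn2a by list, with the distance from the Cdkn2b start site in kb on the horizontal axis (positive is downstream) and the gene models above, where purple ticks are coding start sites. The WT H3K27me3 peak of 41650 bp spans both genes, the Delta list has a gap of 1336 bp within Cdkn2a, and the H3K4me3 peak at the p16 start site is seen in WT alone.

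Cdkn2c encodes p18 (ENSMUSG00000028551.8, chr4:109333481-109339794, minus strand) and has 2 coding start sites. An H3K27me3 peak of 18511 bp in WT and 16827 bp in Delta ran over the whole gene, ranks 142 and 184 by length, with fold enrichments of 7.86 and 7.82. The Delta peak lay wholly within the WT peak and covered 90.9% of it. Within the region the covered lengths were 8019 bp and 7907 bp, a ratio of 0.986. The H3K4me3 peak spanned both start sites and was 2391 bp long in WT and 2035 bp in Delta, a ratio of 0.851, with fold enrichments of 5.97 and 7.40.

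H2AK119ub at Cdkn2c covered 929 bp in WT and 297 bp in Delta, a ratio of 0.320, the lowest of any mark at the inhibitor genes. The WT peak began 2268 bp and the Delta peak 5557 bp downstream of the first start site, and they shared 0 bp. The Delta peak of Cdkn2c, 3740 bp from the nearer start site, and the WT peak of Cdkn2b, at 3774 bp, were called through the gene body and lay outside the 2.5 kb windows. Across the whole WT H3K27me3 peak H2AK119ub covered 3051 bp in WT and 2054 bp in Delta. Faf1, a gene of FAS signalling whose start lies 9398 bp upstream of Cdkn2c on the other strand, had an H3K27ac peak of 836 bp in WT and none in Delta.

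Cdkn2d encodes the INK4 protein p19, which is not p19ARF (ENSMUSG00000066860.6, chr9:21092907-21095653, minus strand), and its region of 5247 bp held no peak of any mark. The nearest H3K4me3 peak lay 3801 bp downstream of its start site in WT against 3816 bp in Delta, and was 377 bp and 536 bp long. These peaks lay near the start of the next gene, Kri1, which codes for a ribosome assembly factor and lies 491 bp from Cdkn2d. The nearest H3K27me3 peak lay 20520 bp upstream in WT against 20110 bp in Delta, and the nearest H3K27ac peaks 51939 bp and 25707 bp downstream. A region with no listed peak can still carry a mark below the limit of the list. According to the methods of the study, regions of unusual ploidy were removed before peaks were called, and whether Cdkn2d lay in one was not tested.

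**Figure D4:**
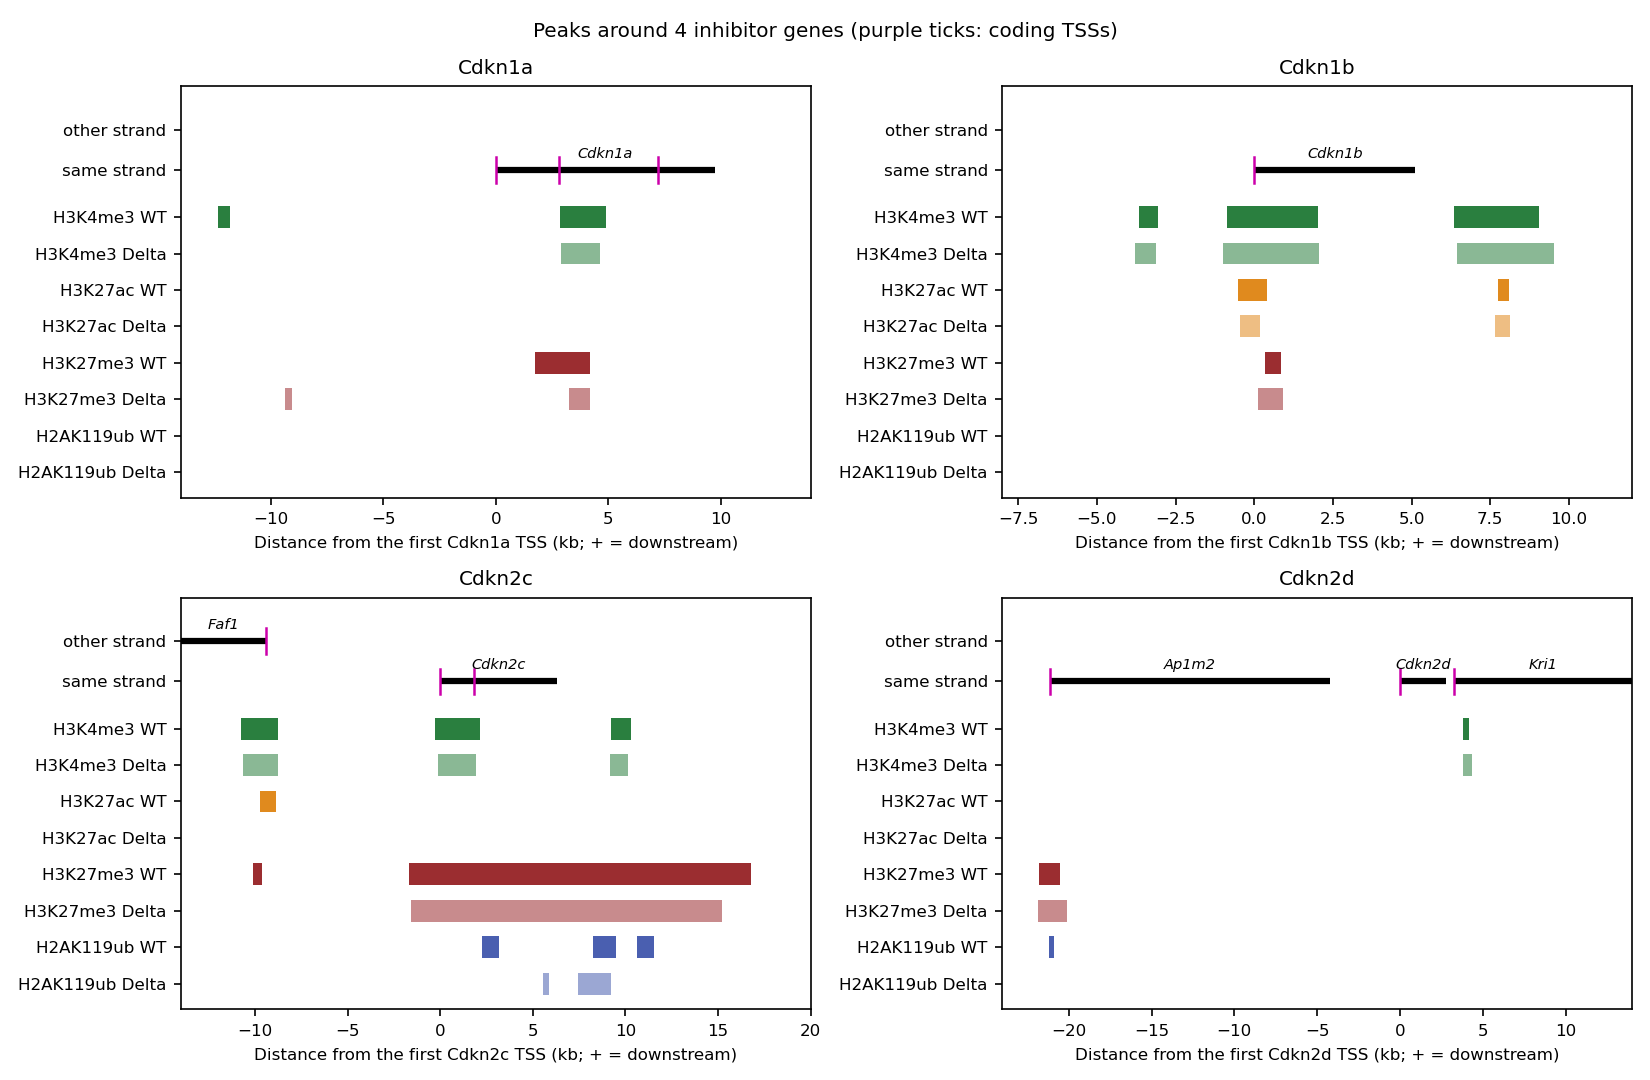
Peaks around Cdkn1a, Cdkn1b, Cdkn2c and Cdkn2d by list, with the distance from the first start site of each gene in kb on the horizontal axis (positive is downstream) and gene models above, where purple ticks are coding start sites. Cdkn1b has H3K27ac inside its H3K4me3 peak, Cdkn2c lies under an H3K27me3 peak of 18511 bp in WT against 16827 bp in Delta, and the nearest peaks to Cdkn2d are those at Kri1.

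All H2AK119ub cover at Cdkn1c, Cdkn2a, Cdkn2b and Cdkn2c lay on H3K27me3, 100% in each genotype. H3K27me3 itself covered 100% of the Cdkn1c region in each genotype and 100% of Cdkn2a in WT against 94.1% in Delta. It covered 91.0% and 89.7% at Cdkn2c, and 78.4% and 77.7% at Cdkn2b. Most peaks in these regions would thus lie on H3K27me3 wherever they fell, and the overlap shows no link between the marks. In WT none of the H2AK119ub cover lay on H3K4me3 at any of the 4 genes. In Delta 1424 bp, or 59.9% of the H2AK119ub cover, lay on H3K4me3 at Cdkn1c and 24 bp, or 0.458%, at Cdkn2a, and none at Cdkn2b and Cdkn2c. H3K4me3 lay on H3K27me3 along its whole length at Cdkn1c, Cdkn2a and Cdkn2c in both genotypes, where the same limit holds. The share of H3K4me3 on H3K27me3 was 85.9% in WT and 43.5% in Delta at Cdkn2b. It was 65.6% and 53.5% at Cdkn1a, and 17.7% and 25.6% at Cdkn1b. In Delta, Cdkn2b thus lay below Cdkn1a, although only Cdkn2b had a long H3K27me3 peak.

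Over the 6 genes with a mark in both genotypes the median ratio of covered length, Delta to WT, was 0.849 for H3K4me3 and 0.989 for H3K27me3, beside 0.928 and 1.00 over all genes covered in both. For H2AK119ub the median over 4 genes was 1.15, beside 0.690 over all genes. This median rests on weak peaks, all of which a −log10 q of at least 3 removed. At Cdkn2b and Cdkn2c the WT and Delta peaks shared 0 bp, and the ratio at Cdkn2a had no stable direction. The lengths of 1 gene passed the 1.5 fold rule in each direction for each of these 3 marks. For H3K4me3 Cdkn2a was lower in Delta and Cdkn1c higher, for H3K27me3 Cdkn1a lower and Cdkn1b higher, and for H2AK119ub Cdkn2c lower and Cdkn1c higher. Cdkn1c did not pass for H2AK119ub when the gene body was left out. Without replicates these are counts and lengths in 8 libraries and nothing was tested.

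**Figure D5:**
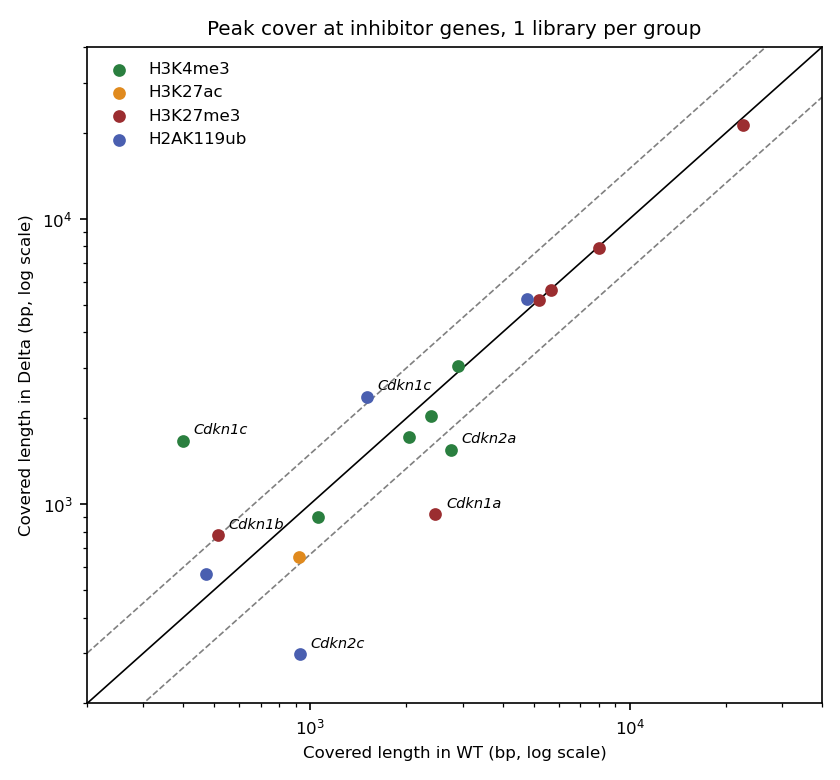
Covered length in Delta against that in WT, in bp on log scales, for each inhibitor gene and mark with cover in both genotypes (1 library each, colour by mark). The solid line marks equal lengths and the dashed lines a 1.5 fold difference. The 6 named points outside the dashed lines are the gene and mark pairs given above, with Cdkn1c H3K4me3 the farthest above and Cdkn2c H2AK119ub and Cdkn1a H3K27me3 the farthest below.

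All H2AK119ub peaks at the inhibitor genes had −log10 q-values between 1.38 and 2.73, so a limit of 3 removed every one of them in both genotypes.

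The cyclins, kinases, pocket proteins and E2F factors on which the inhibitors act, and 9 regulators of the inhibitors, were examined for the same marks. All 33 genes of these lists had H3K4me3 in both genotypes, against 61.9% and 61.4% of all genes, and 21 had H3K27ac in WT and 22 in Delta, against 20.8% and 23.6%. H3K27me3 was found at 23 in WT and 21 in Delta, against 36.7% and 34.6%, with 6 in WT alone and 4 in Delta alone, against 7.08% and 4.99%. H2AK119ub was found at 4 and 3, against 10.8% and 5.70%. Of the 17 genes with H3K27me3 in both genotypes, 5 were lower in Delta by over 1.5 fold and 2 were higher. Among all genes covered in both, 14.2% were lower and 13.1% higher. The median ratio was 0.822, beside 1.00 over all genes.

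The H3K27me3 lengths of single genes went in both directions. The D-type cyclins, which activate CDK4 and CDK6, had H3K27me3 at 3 of 3 genes in WT and 2 in Delta, and Ccnd3 had 1143 bp and 0 bp. Cdk6, whose product p16 and p15 bind, had 3496 bp and 1713 bp, while Cdk4, whose product they bind as well, had 1158 bp and 1669 bp. Rb1, the retinoblastoma gene, had 1358 bp and 2922 bp, and the E2F gene E2f3 908 bp and 2080 bp. Bmi1, a PRC1 subunit gene known to repress Cdkn2a, had the longest cover of these lists, 8848 bp and 8433 bp. Myc, which represses Cdkn2b and Cdkn1a with its partner encoded by Zbtb17, had 2512 bp in the WT list and 710 bp in the Delta list.

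The identity of the sorted cells was checked at markers of the tissues that an EB can hold. At 6 genes of blood and endothelial mesoderm H3K4me3 was found at 6 in each genotype, and H3K27ac at 4 in WT and 0 in Delta. Among all genes the shares were 61.9% in WT and 61.4% in Delta for H3K4me3, and 20.8% and 23.6% for H3K27ac. H3K27me3 was found at 5 of these 6 markers in each genotype, against 36.7% and 34.6% of all genes. Its length was higher in Delta by over 1.5 fold at 3, with a median ratio of 1.70. The median ratio of H3K4me3 was 0.817, with 1 gene lower by over 1.5 fold. At 4 genes of cardiac and paraxial mesoderm H3K4me3 was found at 4 in each genotype and H3K27ac at 0. The H3K4me3 length was higher in Delta by over 1.5 fold at 2, with a median ratio of 1.51. H3K27me3 was found at 3 of these in each genotype and was lower by over 1.5 fold at 1, with a median ratio of 0.779. Of 3 pluripotency genes 1 had H3K4me3 in WT and 2 in Delta, where Pou5f1 had 343 bp in Delta alone. H3K4me3 was found at 2 of 2 endoderm genes in each genotype. It was also found at 2 of 2 neural genes, where 3 were listed and 2 were among the protein-coding genes used. Calls of H3K4me3 thus did not set mesoderm apart from these tissues. H3K27ac was found at 0 of the 3 pluripotency genes, 0 of 2 neural genes and 0 of 2 endoderm genes in each genotype. The part of any difference in cell types in the values above was not tested. A peak list cannot show the deletion in Scl, so the genotypes were taken from the labels.

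Promoter sequence differed among the 7 genes in ways the choice of genes did not use. In the 500 bp on either side of a start site, the ratio of observed to expected CpGs had a median of 0.54 over 46015 coding start sites. It was 0.97 and 0.98 at the p19ARF start sites, 0.91 at Cdkn1b and 0.88 at Cdkn1c. At the p16 start site it was 0.54, equal to the median, and GC content there was 52.5% beside a median of 55.1%. Cdkn2b had 0.74, Cdkn2c 0.72 and 0.62, Cdkn2d 0.66, and the 3 start sites of Cdkn1a 0.13, 0.63 and 0.53. The Cdkn1a site with 0.63 was the one beside the H3K4me3 peak. Genes with a ratio near 0.9 thus included one with H3K27ac, Cdkn1b, and one wholly under H3K27me3, Cdkn1c.

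SCL binds the E-box CANNTG, often with GATA factors. Letters of CANNTG, read on both strands from 250 bases before to 50 after the start site, were found at 5 of the 12 start sites of the inhibitor genes, against 69.2% of all. They lay at 2 of 3 Cdkn1a sites, at Cdkn2b and at both Cdkn2c sites. AGATAA was found at 0 of 12, against 9.44% of all, and TGATAA at 0 of 12, against 7.26%. These are matches of letters and not sites of binding.

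The genes whose marks were most like those of each inhibitor gene were found from the percent of the TSS windows covered, summing the absolute differences over the 8 lists. Cdkn2c was nearest to Adra2b, an adrenergic receptor gene, at 9.09 percentage points, and to the neurotrophin receptor gene Ntrk2 at 17.7. Cdkn2a was nearest to Hpse2 at 11.1 and to the neuronal transcription factor gene Pou4f1 at 14.4. For Cdkn2b a near gene was the growth factor gene Fgf18 at 14.4, and Cdkn1c was nearest to Scarf2 at 18.5 and to the endoderm factor gene Sox17 at 25.9. Cdkn1b was nearest to the RNA-binding protein gene Khdrbs1 at 12.4 and to Akirin2 at 19.2, and Cdkn1a to the prohormone convertase gene Pcsk1 at 5.59 and to Gstt1 at 5.70. Cdkn2d was at 0 with 8048 genes that had no peak in their windows. Among the inhibitor genes the least distance was 58.5 points, between Cdkn1a and Cdkn2d, followed by 69.2 between Cdkn2a and Cdkn2c, and the greatest was 357, between Cdkn1b and Cdkn1c.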

How the data were processed

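Peak lists of 8 ChIP-Rx libraries were used, 1 for each mark and genotype, and groups were taken from the sample titles. The 2 inputs served the authors as controls for peak calling. According to the methods and labels, the authors trimmed reads with Trim Galore, mapped them to mm9 and dm3 with Bowtie, removed duplicates with SAMtools, removed regions of unusual ploidy with bedtools, and called broad peaks in each library with MACS2 2.0.10. The methods apply the Drosophila reference to tag densities, not to the peak lists, so lengths and fold enrichments here are not scaled to it. With that reference the paper reports less H3K27me3 and H2AK119ub in Delta at TSSs across the genome. A change of that kind cannot be read from the lengths or fold enrichments given here. The deposited lists give a score, which was not used, a fold enrichment (a ratio to the local background) and the significance of each peak as −log10 p-value and −log10 q-value, all as made by the authors. The largest deposited q-value was 0.0500, so weaker regions were not listed. Read depth is unknown from these lists, and it limits which regions could be called.

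Coordinates are 1-based on NCBIM37 (mm9), the build of the files, with genes from GENCODE M1. Genes of the mitochondrial genome were left out. All peaks of a list in a region were merged and their covered length was compared between WT and Delta. With 1 library per group there was no test, and 1.5 fold was a rule of size. The members, gene lists and neighbours were chosen with earlier results of these data known, and the 10 kb length was chosen after the values were seen. Named were the 7 genes, their neighbours, the 2 genes nearest to each in marks (1 of those of Cdkn2b is not reported here), and examples from each list. The alternatives tried were peaks limited to a −log10 q of 3 or more, peaks limited to 3 fold or more, a TSS distance of 1000 bp, no gene body, 500 bp of cover and joining of peaks within 3000 bp. The code was tested on simulated data of 200 peaks, with 0 genes called wrongly, and against bedtools 2.31.1 it differed by 0 genes over all lists. Analyses used Python 3.11.15 and matplotlib 3.10.9.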

Additional observations from a re-analysis of the deposited data

How the results depend on the processing

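Under 6 alternatives, 89 counts of inhibitor genes stayed within 1.5 times the values given in the report and 7 did not. Many of the 89 were counts of genes with a mark in 1 genotype alone, 0 before and after. The 3 fold limit removed no peak at these genes, where the lowest fold enrichment was 3.05. Joining peaks cannot remove a call. Ratios of covered length were computed under 3 of the alternatives (a −log10 q of at least 3, a TSS distance of 1000 bp, and no gene body). Of these ratios, 43 stayed within 1.5 times and 1 did not. Among the 43, the H2AK119ub ratio at Cdkn2a went from 1.10 to 0.850 with a TSS distance of 1000 bp. The H3K27me3 ratio at Cdkn2b went from 0.991 to 1.15 with a −log10 q of at least 3, so both changed sides of equal length. Without the gene body the H2AK119ub ratio at Cdkn1c went from 1.58 to 1.44, below the 1.5 fold rule. No ratio was given where cover was lost. With a −log10 q of at least 3, H2AK119ub was found at 0 genes in WT and 0 in Delta, and H3K27me3 at Cdkn1b was lost in both genotypes. Without the gene body, H2AK119ub was found in WT alone at 1 gene, Cdkn2c, and in Delta alone at 1 gene, Cdkn2b, and the H2AK119ub length ratio at Cdkn2a was 2.11. With at least 500 bp of cover, H3K4me3 was found in Delta alone at 1 gene, Cdkn1c, and H2AK119ub in WT alone at 1 gene, Cdkn2c, and in Delta alone at 1 gene, Cdkn2b. These follow from the peaks left out by each limit. No paired analysis was possible because each mark and genotype had 1 library. Numbers of reads per library were not used here, so how far depth sets the number and length of the peaks was not tested.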
